A study of Mus musculus with 6 samples.

Results

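The liver of OGA-KO mice was compared with that of OGA control mice 28 days after partial hepatectomy (labelled PHX), an operation that takes out a portion of the liver and starts its regrowth. The comparison holds 2 of the 6 libraries of the series, 1 OGA-KO library (genotype OGA-/-) and 1 control library (genotype OGAfl/fl, the floxed gene left intact), and was chosen by these labels. Of 12027 genes with a row in the count table, 11851 had at least 1 CPM (counts per 1e6 counts of the library) in either library. Of these, 25 were genes of the exocrine pancreas and are given apart, which left 11826 genes.

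Both groups were male C57BL/6 mice aged 8 weeks, and both had undergone PHX, so no library shows liver without surgery. The study as a whole set mice lacking OGA or OGT in hepatocytes against floxed controls. RNA from 3 mice was pooled for each library, from about 50 mg of whole liver each, and sequenced as mRNA. The labels do not name the promoter that drives Cre, and they give no hour of collection and no feeding state. Whole liver also holds cells in which the gene was not targeted. With 1 pool a side there was no replicate spread to set a difference against. The ranges given after a ratio are 95% exact intervals of counting error only, and no p-value was computed.

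O-GlcNAc is a single sugar that OGT attaches to serine and threonine of nuclear and cytoplasmic proteins and that OGA removes. Its donor, UDP-GlcNAc, is made from glucose by the hexosamine pathway. The molecular clock of the liver is a feedback loop in which BMAL1, paired with CLOCK or NPAS2, activates genes at E-boxes, among them those of its own repressors, the PER and CRY proteins. A second arm joins REV-ERB repressors and ROR activators at ROR elements of Bmal1, and another joins DBP, TEF and HLF with their competitor NFIL3 at D-boxes. Several clock proteins, BMAL1, CLOCK and PER2 among them, are known to carry O-GlcNAc.

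Total counts ranged from 20433100 to 29327722 over the 6 libraries, with 27471275 in the 28-day OGA-KO library and 28971784 in its control. A floor of 3 counts, used where a count was 0, came to 0.121 and 0.115 CPM in these. Defining hepatocyte markers were at matching levels in both: of 16, 15 lay within 2-fold with a median log2 ratio (OGA-KO minus control) of -0.13, and their summed level was 154215 CPM in OGA-KO and 160254 CPM in control. The exception was Serpina1e. The OGA-KO library stood apart from all others in pancreatic transcripts, described first among the results. It was also the only one of the 6 with no row at 0, while each other OGA library had 22, and 21 of the 22 rows at 0 in the 28-day control were pancreas genes. A gene that has no row was not analysed here.

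Oga checked the labels. It had 12.8 CPM (317 counts) in OGA-KO and 67.2 CPM (1760 counts) in the 28-day control, a log2 ratio of -2.38 (-2.57 to -2.22), next to 10.4 and 62.2 CPM at 14 days. Both knockout libraries lay far below their controls and below the OGT control (60.7 CPM), and none was at 0. Ogt, the opposing enzyme, had 79.4 CPM in OGA-KO and 77.2 CPM in control, a log2 ratio of 0.04 (-0.05 to 0.13). Of the 11 measured genes of O-GlcNAc cycling and the hexosamine pathway, from a list of 12 that includes Oga and Ogt, only Oga was past 2-fold. Gne, which starts sialic acid synthesis from the same sugar donor, was the highest of them with 256 and 165 CPM (log2 0.63, 0.58 to 0.69), followed by Amdhd2, which returns GlcNAc phosphate to fructose phosphate (0.42), and Uap1, which makes the donor (0.41).

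Pancreatic digestive enzymes made up the highest ratios of the comparison. Chymotrypsinogen Ctrb1 had 904 counts in OGA-KO against 0 in control, which is at least 319-fold higher against a floor of 3 counts in the control library. Pancreatic lipase Pnlip had 727 and 0 counts (at least 256-fold) and bile salt lipase Cel 447 and 0 (at least 158-fold). All 3 were also at 0 in both 14-day OGA libraries and in the OGT control. Carboxypeptidase Cpa1 had 373 and 0 counts, and the elastase Cela2a had 563 and 13. Of the 25 genes, 24 stood 2-fold or more above control and none below, while of the genes outside this list 1.5% were higher and 0.871% lower. At 0 in control were 21 of them, which could pass the minimum of 1 CPM only through OGA-KO, so their direction was fixed by that minimum. The exception was Cela1 with 1124 and 701 counts, which was present in all 5 libraries of the plot. The closely similar trypsinogens Try4 and Try5 could share reads.

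**Figure D1:**
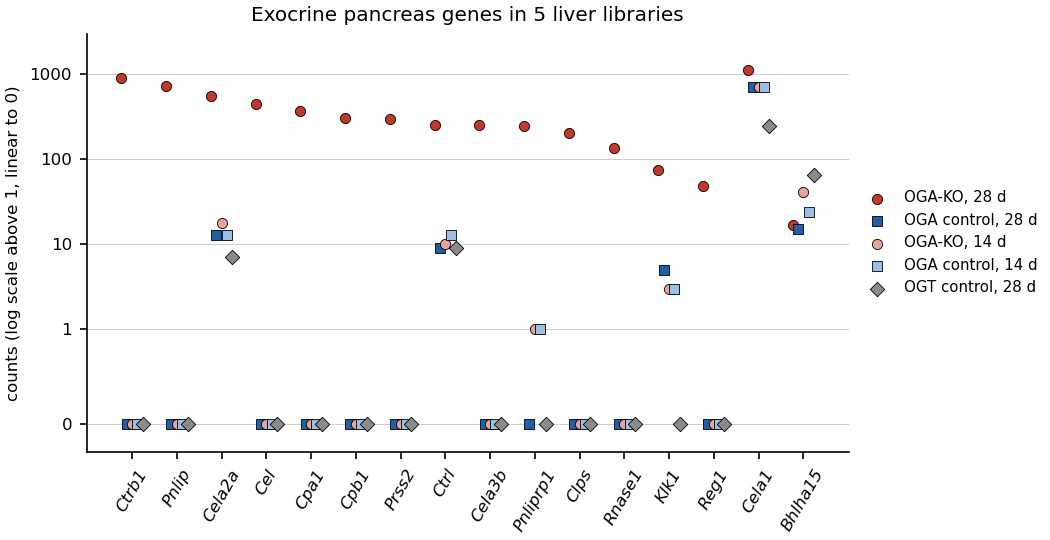
Counts of 16 exocrine pancreas genes (x axis) on a scale that is logarithmic above 1 count and linear to 0; each point is 1 library. OGA-KO at 28 days lies at 49 to 904 counts for 14 genes at which most or all of the other libraries are at 0 or at most 18, while Cela1 and Bhlha15 are present in all 5.

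The list took 6788 counts in OGA-KO, 0.0247% of the library (0.0241 to 0.0253%, exact binomial), against 743 counts or 0.00256% in control. The other OGA libraries held 0.00269% at 14 days in OGA-KO and 0.00288% in its control. Bhlha15, the acinar transcription factor, had 17 counts in OGA-KO against 15 in control, and no row existed for any of 11 islet genes. Other extrahepatic markers differed less. All 6 measured mesothelium genes lay above control, none by 2-fold, from Krt8 at 0.24 to Wt1 at 0.93 (median log2 0.77). Their summed level was 345 against 289 CPM, and 5 of them lay above control at 14 days. All 6 adipocyte genes with a row, out of 10 listed, lay above control, 2 by 2-fold (median 0.59, 68.8 against 45.7 CPM), and 5 did so at 14 days. Of all genes outside the pancreas list 50.7% lay above control at 28 days. Adipsin (Cfd) had 46 counts in OGA-KO against 8 in control, and the trefoil peptide Tff3 had 115 and 15. Cfd and Tff3 were under 1 CPM in control and could be counted only through OGA-KO. Of genes outside the lists, 2 were chosen after their values were seen: Dmbt1, a glycoprotein of epithelial secretions, had 142 and 4 counts, and 2210010C04Rik had 365 and 0. The gene 2210010C04Rik was not on the pancreas list and was kept in the counts of higher genes below. With it the pancreas share of OGA-KO was 0.026%. The part of adjoining tissue in these differences was not tested. In bulk RNA more cells of a type and more RNA per cell cannot be told apart.

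Outside the pancreas list, most genes were close to equal. Of the 11826 genes, 69.9% lay within 1.2-fold, the median log2 ratio was 0.00, and the 5th and 95th percentiles were -0.49 and 0.57. Above control at any size of ratio were 50.7%. At least 2-fold higher in OGA-KO were 177 genes (1.5%) and at least 2-fold lower 103 (0.871%). These shares belong beside every 28-day list count given below, and the 50.7% beside every count by sign. A gene under 1 CPM in 1 library could be counted only through the other, so its direction was fixed by the minimum. At 4-fold the numbers were 24 and 5, and at 8-fold 7 and 1. The 8 highest genes with at least 10 CPM in a library, predicted genes left out, were Ciart, Usp2, Dbp, Per3, Rgs16, Bhlhe41, Pfkfb3 and Myc. Of these, 5 (Ciart, Usp2, Dbp, Per3 and Bhlhe41) belong to the clock or its known outputs. The lowest were Oga, Npas2, Pitx3, Loxl4, Nat8f5, Bmal1 and G6pc1. Moxd1, of the copper monooxygenase family and below that level, had the lowest ratio of those named (24 counts in OGA-KO and 241 in control, log2 -3.15), and was chosen after its values were seen; both 14-day libraries were at 0.222 and 0.245 CPM, so that the 28-day control was the high one.

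**Figure D2:**
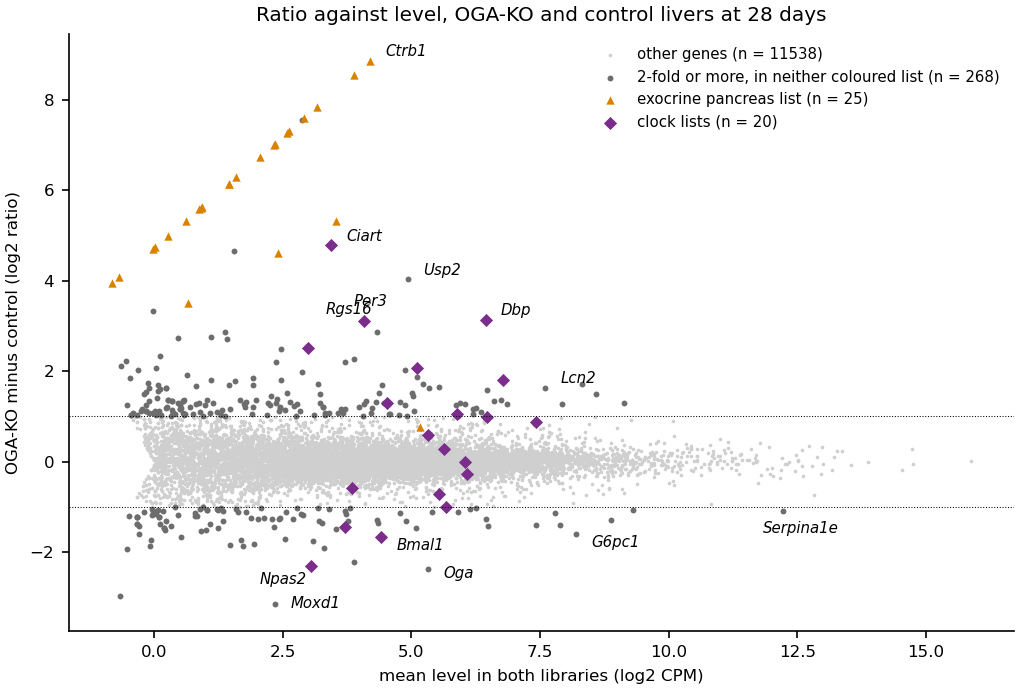
Log2 ratio of OGA-KO over control at 28 days (y axis) against the mean level of both libraries (x axis, log2 CPM), 1 point per gene with at least 1 CPM in either; dotted lines mark 2-fold. Exocrine pancreas genes (orange triangles) form the top left edge, where the control library is at or near 0, and the clock genes (purple diamonds) lie on both sides of the other genes, from Ciart at 4.78 to Npas2 at -2.31.

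Repressors of the clock and the D-box factors were higher in OGA-KO at 28 days. Of 13 genes of this list, 8 stood 2-fold or more above control and 1 below, with a median log2 ratio of 1.29. Over all genes these shares were 1.5% and 0.871% and the median 0.00. With the OGT control in place of the OGA control, the list median was 0.28. Ciart, a repressor of BMAL1 also known as CHRONO, had 21.0 CPM (520 counts) in OGA-KO and 0.688 CPM (18 counts) in control, a log2 ratio of 4.78 (4.26 to 5.70). It had 1.78 and 0.939 CPM in OGA-KO and control at 14 days and 9.31 CPM in the OGT control. The OGA-KO library at 28 days was thus the highest of the 5, the OGT control lay between, and the other 3 were low.

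The genes of the PER proteins differed by unlike amounts. Per3 had 30.4 CPM in OGA-KO and 3.48 CPM in control (log2 3.10, 2.81 to 3.46), with 6.11 and 4.45 CPM at 14 days. Per1 had 55.9 and 13.3 CPM (2.06, 1.90 to 2.24), with 28.9 and 22.9 CPM at 14 days. Per2 had 32.7 and 13.3 CPM (1.29, 1.11 to 1.48), with 14.0 and 15.7 CPM at 14 days. For Per3 the OGT control (5.85 CPM) was near the OGA controls, whereas for Per1 (44.9 CPM) and Per2 (32.1 CPM) it was near the OGA-KO library. The CRY genes went opposite ways. Cry1 was lower, with 7.0 CPM in OGA-KO and 19.1 CPM in control (-1.44, -1.71 to -1.20), and Cry2 was at 48.2 and 32.2 CPM (0.58, 0.45 to 0.71).

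Dbp, which encodes a D-box activator with one of the widest daily swings of liver transcripts, had 156 CPM in OGA-KO and 17.7 CPM in control (log2 3.14, 3.00 to 3.29). It had 15.2 and 6.37 CPM in OGA-KO and control at 14 days and 49.1 CPM in the OGT control, so that both OGA-KO libraries exceeded their own controls. Tef, its relative, had 171 and 48.9 CPM (1.81, 1.72 to 1.90), and Hlf, the other relative, 54.8 and 45.1 CPM (0.28, 0.17 to 0.40). The E-box repressor Bhlhe41 (DEC2) had 13.5 and 2.29 CPM (2.52, 2.16 to 2.98) and its paralogue Bhlhe40 (DEC1) 118 and 59.8 CPM (0.98, 0.89 to 1.07). Bhlhe41 was between 1.08 and 2.29 CPM in all 4 libraries set beside OGA-KO. The REV-ERB genes stood at 221 and 121 CPM for Nr1d1 (0.87) and 79.4 and 38.5 CPM for Nr1d2 (1.04, 0.93 to 1.15).

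Activators of the clock and their partners, a list that also holds the repressors Nfil3 and E2f8, were lower or level. None of the 7 genes was above control, 3 were at least 2-fold lower (0.871% of all genes) and the median log2 ratio was -0.73. With the OGT control in place of the OGA control, the median was -0.20. Npas2, which can replace CLOCK as the partner of BMAL1, had 2.75 CPM in OGA-KO and 13.9 CPM in control (-2.31, -2.73 to -1.96). Bmal1 had 10.2 and 32.4 CPM (-1.66, -1.88 to -1.46). Nfil3, the competitor of DBP, had 33.9 and 68.0 CPM (-1.0, -1.12 to -0.88). At 14 days Bmal1 had 19.9 CPM in OGA-KO and 24.6 CPM in control, between the levels of the 28-day pair. Clock had 34.9 and 57.8 CPM (-0.73), E2f8 was at -0.59, and Rora was equal in both (66.3 and 66.4 CPM).

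**Figure D3:**
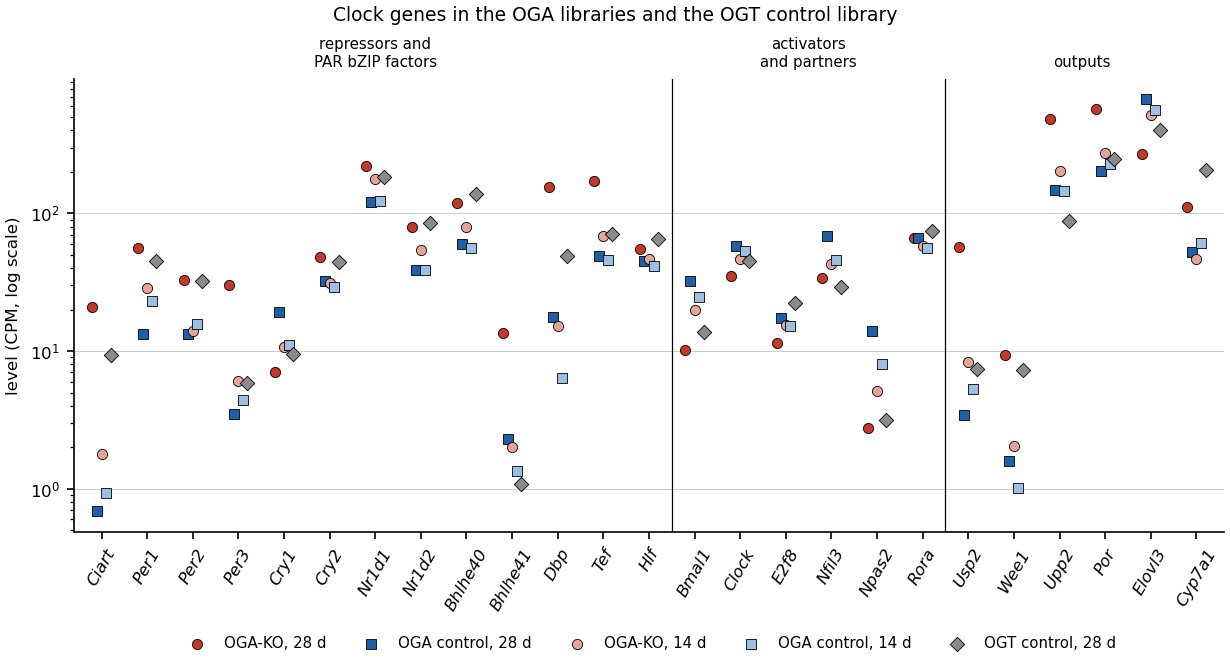
Level (y axis, CPM on a log scale) of clock genes and 6 of their known outputs (x axis) in 5 libraries, 1 point per library. OGA-KO at 28 days (dark red circles) is the highest OGA library for 12 of the 13 genes on the left, and the 28-day control (dark blue squares) is the highest for all 6 activators and partners shown.

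Each library of the pair lay at an end of the 4 OGA libraries for many clock genes. As a list, the repressors and D-box factors were not lower in the 28-day control than in the 14-day control (median log2 ratio 0.09). The activators and partners were higher in the 28-day control (0.40). Among the 13 repressors and D-box factors, OGA-KO at 28 days was the highest of the 4 OGA libraries for 12 and the lowest for 1, while over all genes it was the highest for 28.0% and the lowest for 28.5%. The 28-day control was the lowest of the 4 for 6 of these 13 and the highest for all 7 activators and partners, against 27.4% and 26.4% of all genes. At 14 days the repressor list had a median log2 ratio of 0.49 with 1 gene, Dbp, past 2-fold (0.534% of all genes were 2-fold higher and 0.305% lower at that time), and the activator list had -0.15 with none. A difference in hour of collection between the pools and a difference by genotype cannot be told apart, since the labels give no hour and each group is 1 pool.

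The E-box, D-box and ROR letters of the loop stand close to the starts of several of these genes. The sequences that follow, from the RefSeq promoter table (build GRCm38.p6, 5′ to 3′ on the strand of the gene), are shown because these 5 genes of the clock lists hold such letters and lay on both sides of control; capitals mark CACGTG (E-box), TTATGTAA or TTACGTAA (D-box) and TAGGTCA or its complement TGACCTA (ROR element). The first 3 and the last show the 250 bases before the start, and Bmal1 shows the last 30 bases of its window, which ends 50 bases after the start.
Ciart, chr3:95882229-95882478, minus strand: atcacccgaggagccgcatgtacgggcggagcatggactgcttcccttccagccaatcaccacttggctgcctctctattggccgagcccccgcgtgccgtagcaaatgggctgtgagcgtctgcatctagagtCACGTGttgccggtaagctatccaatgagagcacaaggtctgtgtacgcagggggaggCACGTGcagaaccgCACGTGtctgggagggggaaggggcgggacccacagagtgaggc
Per3, chr4:151044666-151044915, minus strand: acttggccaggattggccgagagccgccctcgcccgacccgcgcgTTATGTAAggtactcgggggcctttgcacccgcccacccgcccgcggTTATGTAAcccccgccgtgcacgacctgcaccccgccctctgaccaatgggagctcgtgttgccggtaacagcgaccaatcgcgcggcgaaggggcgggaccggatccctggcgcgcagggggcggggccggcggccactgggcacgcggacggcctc
Cry1, chr10:85185055-85185304, minus strand: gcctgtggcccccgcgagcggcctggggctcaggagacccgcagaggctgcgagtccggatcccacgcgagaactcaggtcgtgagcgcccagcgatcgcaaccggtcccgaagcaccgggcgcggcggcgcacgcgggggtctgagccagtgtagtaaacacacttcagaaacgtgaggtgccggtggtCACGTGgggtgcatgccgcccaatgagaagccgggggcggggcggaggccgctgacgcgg
Bmal1, chr7:113207531-113207560, plus strand: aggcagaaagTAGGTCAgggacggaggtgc
Nfil3, chr13:52981040-52981289, minus strand: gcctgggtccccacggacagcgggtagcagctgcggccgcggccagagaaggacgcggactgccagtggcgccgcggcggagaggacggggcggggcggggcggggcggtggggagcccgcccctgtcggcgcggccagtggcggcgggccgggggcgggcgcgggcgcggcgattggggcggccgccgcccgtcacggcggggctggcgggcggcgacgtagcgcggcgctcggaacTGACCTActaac

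Ciart, the highest of these genes, holds 3 E-boxes 116, 58 and 44 bases before its start. Per3 holds 2 D-boxes 205 and 158 bases before it, and Cry1, which was lower in OGA-KO, also holds an E-box, 60 bases before. In these lists a ROR element was found in Bmal1 (30 bases after the start) and Nfil3 (12 bases before), both lower in OGA-KO. Windows of 300 bases, 250 before to 50 after the start, were searched on both strands. An E-box was in 5 of the 11 repressor and D-box factor genes with a window (Ciart, Cry1, Per1, Tef and Bhlhe41), against 11.8% of all 9376 genes with one. A ROR element was in 2 of the 6 genes of the list of activators and their partners with a window, against 2.47%, and a D-box was in 1 of the 11, against 0.885%. Of all genes at least 2-fold higher, 19.2% of 125 with a window held an E-box, and of those lower 9.41% of 85. The ROR element was in 3.2% of the higher and in 7.06% of the lower genes. A cAMP element (TGACGTCA) was in 1.6% of the higher genes and in 3.39% of all. These matches are descriptions of letters.

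Known outputs of the liver clock were split in direction. Of 22, 5 were at least 2-fold higher and 1 was lower (1.5% and 0.871% over all genes), and the median log2 ratio was 0.61. With the OGT control in place of the OGA control, the median was 0.05. Usp2, a deubiquitinase, had 57.4 CPM in OGA-KO and 3.44 CPM in control (log2 4.03, 3.75 to 4.38), with 8.33 and 5.35 CPM at 14 days and 7.41 CPM in the OGT control. OGA-KO at 28 days was far above the other 4 libraries, which lay within 3.44 to 8.33 CPM. Wee1, a kinase that holds back entry into mitosis, had 9.42 and 1.60 CPM (2.50, 2.07 to 3.06). Upp2, a uridine phosphorylase, had 487 and 148 CPM (1.72, 1.66 to 1.77) and Por, the electron donor of all microsomal P450 enzymes, 568 and 202 CPM (1.49, 1.44 to 1.54). Elovl3, a fatty acid elongase, was lower at 272 and 671 CPM (-1.30, -1.34 to -1.26). Cyp7a1, which catalyses the first step from cholesterol to bile acids, had 112 and 52.5 CPM (1.09, 0.99 to 1.18), while the OGT control had 208 CPM.

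A minority of early response and G1 genes were past 2-fold. Of 24 immediate early genes 6 lay 2-fold or more above control and 1 below (1.5% and 0.871% over all genes), with a median log2 ratio of 0.18. Rgs16, which ends signalling by Gi and Gq proteins, had 35.4 CPM in OGA-KO and 4.81 CPM in control (2.86, 2.61 to 3.16), and 4.26 and 0.653 CPM at 14 days (2.57). It was higher in both knockout libraries than in their own controls, as were the basic leucine zipper factor Maff (11.8 and 2.94 CPM, log2 1.97, and 1.42 at 14 days) and Klf10 (31.9 and 15.4 CPM, 1.04, and 1.23 at 14 days). Fos was lower at both times (1.37 and 5.23 CPM, -1.87, and -1.83 at 14 days). Rgs16 in the OGT control, at 94.6 CPM, exceeded all OGA libraries.

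Myc, the growth-promoting transcription factor, had 21.6 CPM in OGA-KO and 4.66 CPM in control (log2 2.20, 1.93 to 2.51), with 7.40 and 8.82 CPM at 14 days and 38.5 CPM in the OGT control. Ccnd1, the cyclin that carries hepatocytes through G1, had 70.1 and 22.4 CPM (1.64, 1.51 to 1.78), and Ccne1 45 and 14 counts (1.63, 0.87 to 2.75). Ccne1 was under 1 CPM in control and could be counted only through OGA-KO. Myc, Ccnd1 and Ccne1 were the 3 of 18 G1 genes past 2-fold, all higher (1.5% over all genes), and the list median was -0.01. Genes of cell division did not go with them. Of 17 mitosis genes 1 lay 2-fold or more above control and 3 below, with a median of -0.32. At any size of ratio 12 lay below control. The summed level of the 17 was 52.5 CPM in OGA-KO and 55.0 CPM in control. Mki67, the proliferation marker, had 35 and 96 counts (-1.33, -1.98 to -0.80), Bub1b 11 and 30 and Cdc20 20 and 51. Bub1b and Cdc20 were under 1 CPM in OGA-KO and could be counted only through control. Pttg1 (securin) had 427 and 214 counts (1.07) and gave a large part of the summed level in OGA-KO. None of 35 DNA replication genes differed by 2-fold (median -0.18), nor did any of 14 targets of YAP (median 0.10). Of 27 growth factors of regeneration and their receptors, 2 were lower, Igfbp1 and Egf (13 and 32 counts). Egf was under 1 CPM in OGA-KO and could be counted only through control.

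Acute phase genes, secreted by the liver in inflammation, were higher in part. Of 32, 5 reached 2-fold or more above control and none below (1.5% and 0.871% over all genes), with a median log2 ratio of 0.34. At any size of ratio 24 lay above control and 8 below, the lowest being Apcs at -0.48. The siderophore-binding protein Lcn2 had 293 CPM in OGA-KO and 94.4 CPM in control (1.64, 1.57 to 1.70), with 16.9 and 30.1 CPM at 14 days and 23.9 CPM in the OGT control. Both 28-day OGA libraries were thus above every 14-day level, OGA-KO the more so. Orm2 had 345 and 143 CPM (1.27) and Orm3 54.3 and 14.7 CPM (1.87); these genes of orosomucoid are near-identical and could share reads. The metallothioneins Mt1 (133 and 44.5 CPM, 1.57) and Mt2 (57.9 and 17.5 CPM, 1.73) bind zinc and copper. The fibrinogen genes Fga and Fgg were at -0.33 each. Tnfaip3, the NF-kB inhibitor A20, had 14.1 and 4.20 CPM (1.72, 1.43 to 2.07). Il1rn, the interleukin-1 receptor antagonist, was at 1.81, Tlr2 at 1.14 and Nfkbiz at 1.05. These 3 inflammatory genes were chosen after their values were seen, so their direction gives no support. Of 4 neutrophil genes with a row, out of 13 listed, S100a9 (37 and 17 counts) and Ngp (27 and 5) were past 2-fold. In control both were under 1 CPM (0.65 and 0.19), as was S100a8 (0.84). They could pass the minimum of 1 CPM only through OGA-KO, so their direction was fixed by it. The summed level of the 4 genes was 6.15 CPM in OGA-KO and 3.51 CPM in control, against 5.96 and 6.98 CPM at 14 days. The part of neutrophils in the acute phase difference was not tested.

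Most iron genes were near level, and 12 of 20 were above control. Hamp, which encodes hepcidin, the hormone that blocks iron export, had 504 CPM in OGA-KO and 253 CPM in control (log2 0.99, 0.95 to 1.04), just short of 2-fold. Its neighbour Hamp2 (13.6 and 5.88 CPM, 1.2) and Id1, a target of BMP signals (8.94 and 3.06 CPM, 1.52), were the 2 of 20 past it, Smad7 was at 0.87, and the median was 0.09. Among 21 genes induced by glucocorticoids, 5 were at least 2-fold higher and 1 lower (1.5% and 0.871% over all genes), with a median of 0.22. Fkbp5, a chaperone of the glucocorticoid receptor, had 61.7 and 19.8 CPM (1.64, 1.5 to 1.79) and also 38.3 and 20.9 CPM at 14 days. The other 4 were Per1, Lcn2, Mt1 and Mt2, which stand in other lists as well.

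Few genes of glucose metabolism were past 2-fold. Of 22 genes of gluconeogenesis, glycogen and insulin signalling none was at least 2-fold higher and 3 were lower, with a median log2 ratio of -0.03. G6pc1, the catalytic subunit of glucose-6-phosphatase, which frees glucose for export, had 145 CPM in OGA-KO and 441 CPM in control (log2 -1.60, -1.66 to -1.55), with 259 and 298 CPM at 14 days. Irs2, an insulin receptor substrate, had 26.7 and 57.6 CPM (-1.11), and Ppp1r3c, which directs phosphatase 1 to glycogen, 45.7 and 94.8 CPM (-1.05). Of 24 glycolysis genes none was lower by 2-fold, and the median was 0.09. Pfkfb3, which makes the allosteric activator of phosphofructokinase, had 24.7 and 5.08 CPM (2.26, 2.01 to 2.56). For G6pc1 and Pfkfb3 the pair lay on either side of both 14-day levels, while for Irs2 the 28-day control was the library apart, above 22.8 and 25.1 CPM at 14 days. Slc37a4, which carries glucose-6-phosphate to the phosphatase, was at 0.57 and Gys2, liver glycogen synthase, at 0.80.

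Lipid genes were nearly level. No gene of 23 in lipogenesis and none of 25 in cholesterol synthesis differed by 2-fold, with medians of 0.04 and 0.05; Thrsp (0.82) and Lpin1 (0.71) were the upper members of the former. Of 31 fatty acid oxidation genes and targets of PPARA, 2 were higher. These were Acot3, a peroxisomal thioesterase (4.69 and 0.649 CPM, log2 2.71, 2.11 to 3.68), and Cyp4a14, a fatty acid hydroxylase (48.1 and 16.8 CPM, 1.51). Of 30 genes of bile acids only Cyp7a1 was past 2-fold, and of 26 apolipoproteins and lipoprotein genes only the lipase Lipg (13.6 and 5.81 CPM, 1.22). Mfsd2a, a carrier of lysophosphatidylcholine, had 47.0 and 11.5 CPM (2.03, 1.85 to 2.22), but 49.7 and 39.4 CPM at 14 days, so that the 28-day control was the low one.

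Sex-biased genes of the liver are set by the pattern of growth hormone, and all mice here were male. Of 14 female-biased genes 8 reached 2-fold or more above control and none below (1.5% and 0.871% over all genes), with a median log2 ratio of 1.11. Besides Acot3 and Hamp2 these included Nipal1, a magnesium transporter (115 and 34 counts, 1.78), Cyp2a4 (93.5 and 38.6 CPM, 1.27), Abcd2 (122 and 51 counts, 1.31) and Cyp17a1 (119 and 51 counts, 1.27). Only 14 of 30 listed genes had 1 CPM and a row, and a member under 1 CPM in control, such as Acot3, could enter only through OGA-KO, so that the count is a description. Cyp2a4 differs little in sequence from Cyp2a5, which was also higher (800 and 328 CPM, 1.29), so that reads could be split between them. Of 23 male-biased genes none was higher and 2 were lower, Cspg5 (36 and 131 counts, -1.73) and Elovl3, with a median of -0.14 and 6 above control. Hsd3b5 was at 107 and 186 CPM (-0.79).

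Major urinary protein genes, pheromone carriers that male liver secretes, lay mostly below control at both times. Of 20, 17 were below control at 28 days, 5 of them by 2-fold, with a median log2 ratio of -0.76. At 14 days 17 were below, 6 of them by 2-fold, with a median of -0.71. Over all genes 0.871% were 2-fold lower at 28 days and 0.305% at 14 days. The summed level was 10755 CPM in OGA-KO and 17136 CPM in control at 28 days, and 10497 and 13094 CPM at 14 days. The members past 2-fold at 28 days were Mup15 (130 and 345 CPM, -1.41), Mup1 (93.7 and 248 CPM, -1.40), Mup14, Mup19 and Mup12. Beside the 14-day control all of these but Mup1 were higher in the OGA-KO library. The 28-day control held the highest level of the 4 OGA libraries for 14 of the 20, against 26.4% of all genes. These genes are near-identical copies and the counting of shared reads is not stated, so single members are uncertain. In growth hormone signalling, Cish, a feedback inhibitor, had 48.2 and 17.5 CPM (1.46, 1.30 to 1.62), but 21.0 and 38.3 CPM at 14 days.

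Stress genes of the secretory pathway lay slightly below control. Of 29 genes of the unfolded protein response 23 were below control, with a median log2 ratio of -0.25 (-0.16 at 14 days), and OGA-KO at 28 days was the lowest OGA library for 20 of the 29, against 28.5% of all genes. Sdf2l1, a partner of the chaperone BiP, had 17.9 CPM in OGA-KO and 49.9 CPM in control (-1.47, -1.64 to -1.32) and 26.4 and 47.6 CPM at 14 days. Derl3 (32 and 73 counts, -1.06) was the other past 2-fold, and Hyou1 was at -0.61. Herpud1, a degradation factor of the same response, was opposite at 643 and 385 CPM (0.74). In the integrated stress response Trib3 (13.3 and 5.43 CPM, 1.29) and Nupr1 (49 and 20 counts, 1.29) were higher and Gdf15, a stress cytokine, lower (6.07 and 17.3 CPM, -1.5), with a median of 0.00 over 20 genes. Nupr1 was under 1 CPM in control and could be counted only through OGA-KO. Gdf15 is also a target of p53, as is Gadd45a (142 and 57 counts, 1.37), and these were the 2 of 19 such targets past 2-fold. Heat shock genes held no 2-fold difference among 20 and NRF2 targets none among 21; the lowest of the latter was Gclc (318 and 524 CPM, -0.72).

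**Figure D4:**
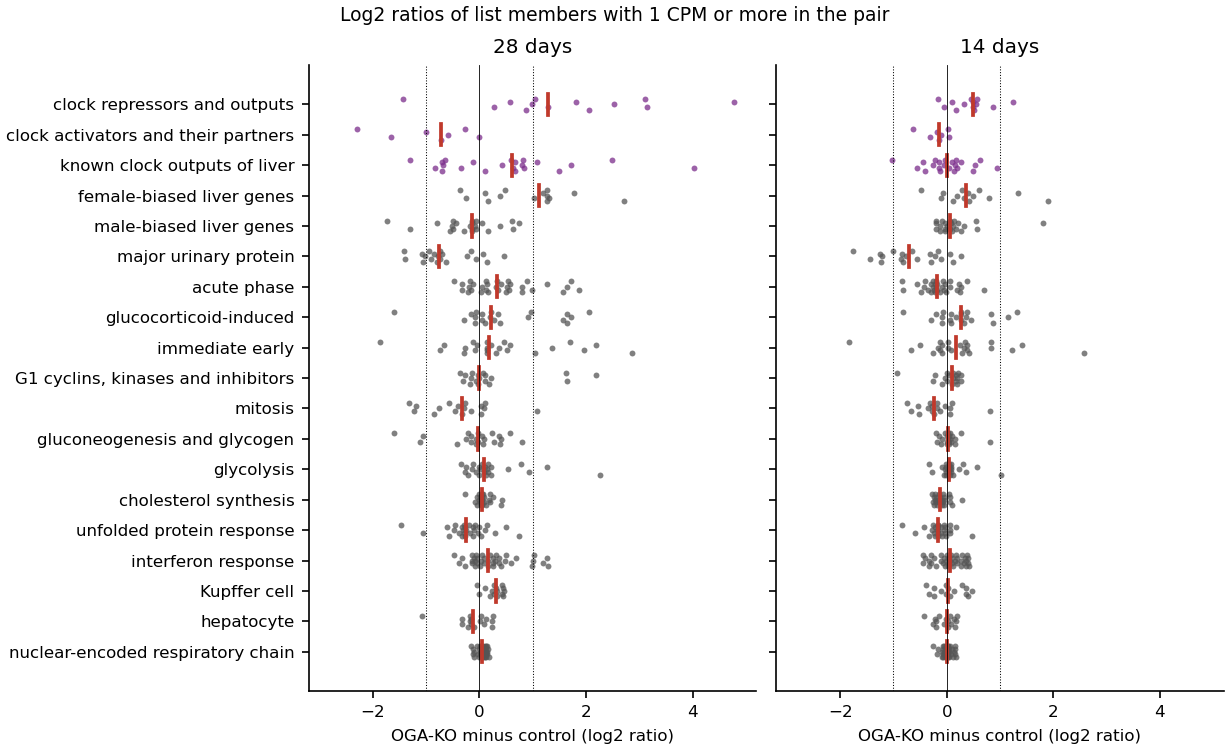
Log2 ratio of OGA-KO over control (x axis) for members of 19 gene lists (rows) at 28 days (left) and 14 days (right); each point is 1 gene, red bars mark list medians and dotted lines 2-fold. At 28 days the medians run from -0.76 (major urinary proteins) to 1.29 (clock repressors and outputs), and genes of the respiratory chain sit within -0.16 to 0.17.

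Most genes of the interferon response and antigen presentation were near level. Of 39 such genes 5 were at least 2-fold higher (1.5% over all genes), with a median log2 ratio of 0.17. They were the class II genes H2-Eb1 (23.9 and 9.90 CPM, 1.27) and H2-Aa (26.2 and 11.4 CPM, 1.19), the invariant chain Cd74 (80.4 and 39.7 CPM, 1.02), the chemokine Cxcl9 (1.01) and Ifi27l2a (65 and 27 counts, 1.29). The class II gene H2-Ab1, named after its values were seen, was short of 2-fold at 0.98. Cd74 also marks B cells, of which Jchain had 26 and 31 counts and 8 of 10 listed genes had no row. Of 15 Kupffer cell genes 14 were above control (50.7% over all genes), none by 2-fold (median 0.32, highest Adgre1 at 0.47, summed level 370 and 300 CPM). OGA-KO at 28 days was the highest OGA library for 10 of the 15, against 28% of all genes. The part of macrophage content in these differences was not tested. Endothelial genes (20, median -0.02) and genes of matrix and activated stellate cells (31, median 0.15) held no 2-fold difference, nor did 12 bile duct genes (median 0.30). The same held for 9 genes of recruited macrophages (median -0.01) and 6 of red blood cells (median -0.08). Over 13 genes of quiescent stellate cells the median was -0.13. Of 9 fetal and oncofetal genes (median 0.27) 1 was past 2-fold: Gpc3, a fetal liver proteoglycan, had 62 and 16 counts (1.91, 1.23 to 2.93) and 2.48 and 1.14 CPM at 14 days. In the 28-day control Gpc3 was under 1 CPM and could be counted only through OGA-KO.

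The remaining functions of hepatocytes were near level in both libraries. All 13 mitochondrially encoded genes lay within -0.13 to 0.10, and all 39 nuclear genes of the respiratory chain within -0.16 to 0.17. No gene of 33 in the urea cycle and amino acid metabolism was past 2-fold, the highest being Sds (319 and 163 CPM, 0.96) and Oat (1422 and 764 CPM, 0.90). None of 33 conjugating enzymes passed, and of 34 drug-metabolising P450 genes and their partners 3 did, Por, Cyp2a4 and Cyp2a5. Genes of the 2 ends of the liver lobule differed in few members. Pericentral genes (25, median 0.15) held 2 past 2-fold, Cyp2a5 and Cyp7a1, both higher, and periportal genes (24, median -0.06) held G6pc1 and the tight junction gene Cldn1 (51.2 and 124 CPM, -1.28), both lower. Of 32 transcription factors of hepatocytes only Foxa3 passed (99.8 and 48.0 CPM, 1.05). Serpina1e, 1 of several near-identical genes of alpha-1-antitrypsin, had 3076 and 6527 CPM (-1.09) and was, with Mup14, G6pc1, Elovl3, Mup15 and Clpx, a mitochondrial chaperone (138 and 304 CPM, -1.14), among the 6 most abundant genes past 2-fold downward. The 6 most abundant upward were Cyp2a5, Por, Upp2, Orm2, Lcn2 and Tef.

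The 14-day pair, from other pools, showed the direction of the 28-day difference for most of these genes and its size for few. Of the 177 genes higher at 28 days, 126 (71.2%) were above control at 14 days, where 50.4% of all genes were, and their median log2 ratio was 0.29 there against 1.29 at 28 days. Of the 103 lower genes, 75 (72.8%) were below control, with medians of -0.28 and -1.26. At 2-fold in the same direction at both times were 12 of the higher and 7 of the lower genes. Over all genes 0.534% were 2-fold higher and 0.305% lower at 14 days. Past 2-fold the opposite way at 14 days were 1 of the higher and 2 of the lower genes. With at least 10 CPM in a library, the genes past 2-fold the same way were Dbp, Rgs16, Maff and Klf10 upward and Oga downward.

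**Figure D5:**
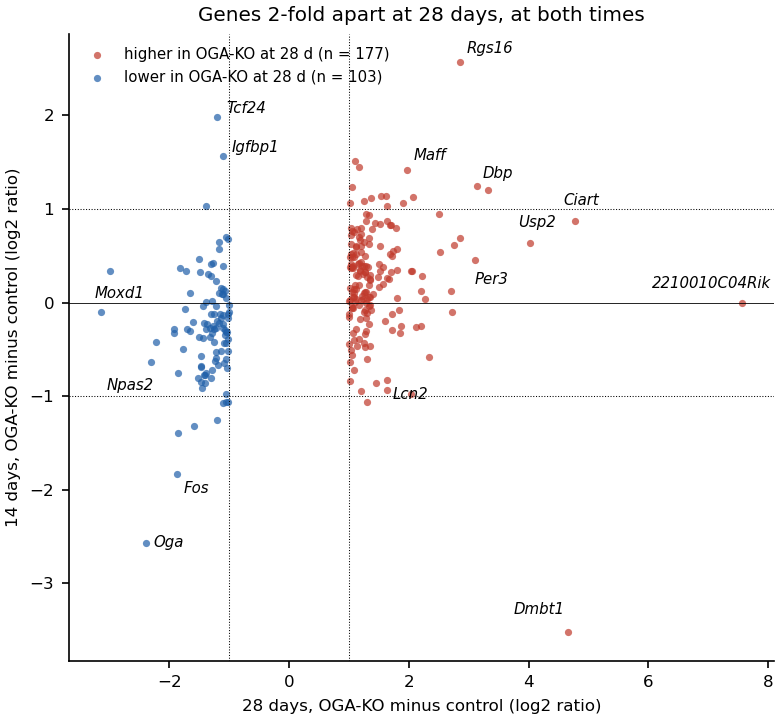
Log2 ratio of OGA-KO over control at 14 days (y axis) against 28 days (x axis) for the 280 genes at least 2-fold apart at 28 days, 1 point per gene; dotted lines mark 2-fold. Most points lie on the same side of 0 at both times and within 2-fold at 14 days; Oga, Rgs16 and Dbp are past 2-fold at both, and Igfbp1 and Tcf24 lie opposite.

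Either library of the pair could be the one that differed from earlier levels. Of the 177 higher genes, OGA-KO at 28 days was at least 2-fold beyond both 14-day OGA libraries for 46, the 28-day control for 19, both for 2 and neither for 110. Of the 103 lower genes it was OGA-KO for 12, the control for 15 and neither for 76. Set against every control library in turn (OGA at 28 and 14 days, OGT at 28 days), 44 genes lay above and 19 below by 2-fold or more in OGA-KO. The former include Ciart, Usp2, Dbp, Per3, Bhlhe41, Tef, Upp2, Por, Maff, Klf10, Lcn2, Orm2, Orm3, Mt1, Il1rn, Acot3, Nipal1, Cyp2a4 and Gpc3, and the latter Oga, Pitx3, Mki67 and Cdc20. These 3 comparisons share the OGA-KO library. Myc, Pfkfb3, Rgs16, Wee1, Per1, Per2 and Bmal1 are not among them. Beside the OGT control alone, whose mice carry another floxed gene, the ratio of Myc (-0.83), Pfkfb3 (-0.87), Rgs16 (-1.42), G6pc1 (0.25), Fkbp5 (-0.51), Cyp7a1 (-0.90) and Nfil3 (0.22) had the opposite sign.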

How the data were processed

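The authors deposited raw counts for Ensembl genes, 1 column a library, and a second table of the same as CPM, which in the OGA columns equalled the count over the column total. Per the submitters' processing notes, STAR, Subread and edgeR were used with build mm39; versions, strand setting and the row filter are not given in the sources used here. CPM here use TMM effective library sizes over all 6 libraries (edgeR 4.0.16, R 4.3.3). Ratios are log2 with a prior count of 2, and intervals are exact Clopper-Pearson intervals (scipy 1.17.1) of the 2 counts at 95%. No molecular identifiers are named in the labels, so that reads are not independent molecules, and intervals cover counting error only. A gene was counted at 2-fold or more and 1 CPM or more in the higher library, since 1 pooled library a group allows no test. The procedure was tested on simulated data.

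Members, lists and comparisons were chosen with earlier results of these data known. Named genes are Oga and Ogt; the 15 highest and 15 lowest ratios at 10 CPM or more; the 6 most abundant past 2-fold each way; clock and pancreas genes; up to 5 members of each other list by size of ratio; and genes past 2-fold at both times. Predicted genes were passed over, and exceptions are marked. Symbols were found for 12019 identifiers. Promoters are RefSeq windows of build GRCm38.p6, found for 9376 genes, and are not coordinates of the count table. Alternatives were another scaling, prior count, filter, fold or control library. Some genes are not reported here.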

Additional observations from a re-analysis of the deposited data

Results flagged for a closer look

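At 28 and 14 days, 3 genes past 2-fold lay on opposite sides of control, and the difference between the times was not tested. Igfbp1, an insulin-repressed binding protein of insulin-like growth factors, had 37.7 CPM in OGA-KO and 81.6 CPM in control at 28 days (log2 -1.11, -1.23 to -1.0) and 75.4 and 25.5 CPM at 14 days (1.56). The levels of both groups thus changed places between the times. Cyp21a1, a steroid hydroxylase, had 182 and 77 counts at 28 days (1.30) and 91 and 175 at 14 days (-1.07). Tcf24, a basic helix-loop-helix factor, had 26 and 66 counts at 28 days (-1.20) and 154 and 34 at 14 days (1.98). Cyp21a1 and Tcf24 were chosen after their values were seen.

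The acute phase list had a median log2 ratio of 0.34 at 28 days and -0.19 at 14 days. Of its 32 genes 24 were above control at 28 days and 8 at 14 days, and this difference between the times was not tested either.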

How the results depend on the processing

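With 1 pooled library a group, nothing could be left out as a replicate. No paired analysis was possible because each group is 1 library, and the result comes from no test. Scaling hardly mattered: the 4 alternatives (library totals, DESeq2 size factors, TMM on the pair alone, TMM without pancreas genes) moved all ratios by at most 0.01 and gave 168 to 177 higher and 102 to 104 lower genes. A prior count of 10 gave 133 and 71, a prior of 0.5 gave 190 and 107, and the 14-day OGA control in place of the 28-day one gave 172 and 79. The counts moved by over 1.5 times with a minimum of 5 CPM (93 higher, 53 lower), with a threshold of 1.5-fold (568 and 421) or 3-fold (49 and 19), and with the OGT control as control (748 and 523). The pancreas share of OGA-KO without its 5 highest genes was 0.011%. Depth limits genes under about 50 counts, whose intervals span more than 2-fold.

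Of 129 genes named, 99 were past 2-fold, and a change of sign was looked for in these 99 alone. None of them changed sign under another scaling, prior or filter. Sizes held less well. With a prior count of 10, 9 ratios changed in size and 119 stayed. With the 14-day OGA control 72 ratios moved, 9 of the 99 changed sign and 44 stayed. With the OGT control these numbers were 73, 31 and 24. Genes short of 2-fold that turned sign, such as Adgre1 with the OGT control (-0.93), are not among the 9 and 31. Of 45 list counts, 11 changed with a minimum of 5 CPM, 20 with the 14-day OGA control and 34 with the OGT control. Among the 99, signs turned only with another control library, and the cause was not tested. With the 14-day OGA control, log2 ratios became -0.25 for Cyp17a1, 0.56 for Igfbp1, 0.088 for Irs2, 0.47 for Mup12, 0.42 for Mup14, 0.24 for Mup15, 0.57 for Mup19, -0.28 for Ngp and -0.37 for S100a9. With the OGT control, genes higher in the main comparison became lower: Ccne1 -0.35, Cxcl9 -0.74, Cyp17a1 -0.12, Cyp2a5 -0.45, Cyp4a14 -2.52, Cyp7a1 -0.90, Fkbp5 -0.51, Gadd45a -0.39, Hamp2 -1.86, Ifi27l2a -0.63, Lipg -0.16, Myc -0.83, Nr1d2 -0.11, Nupr1 -2.30, Pfkfb3 -0.87, Rgs16 -1.42 and Trib3 -0.61. Genes lower became higher: Cspg5 4.20, Derl3 0.54, G6pc1 0.25, Irs2 0.85, Loxl4 2.27, Mup1 3.00, Mup12 3.17, Mup14 1.96, Mup15 0.85, Mup19 2.15, Nfil3 0.22, Sdf2l1 0.14, Serpina1e 5.48 and Tcf24 3.16.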
